A study of Homo sapiens with 2 samples.

Results

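The mitogen-activated protein (MAP) kinase cascade genes were described in a list of APC chromatin peaks from HCT-116 cells. Every row named for a gene of the form MAPK, MAP2K, MAP3K or MAP4K plus a number was taken, which gave 116 of 44771 peaks and 38 genes. RefSeq lists 43 genes with such symbols. By tier there were 37 MAPK, 20 MAP2K, 46 MAP3K and 13 MAP4K peaks. HCT-116 is a human colon carcinoma line of genotype APC wild-type, CTNNB1{delta}Ser45, so it carries intact APC and a β-catenin that escapes degradation, and it was grown without further treatment. The series has 1 library made with a polyclonal antibody against the C-terminus of APC and 1 library of pre-cleared input from the same untreated cells. There were no replicates and no control antibody, so APC binding and general recovery of open chromatin cannot be told apart.

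A MAP kinase cascade passes a signal from kinase to kinase. MAP4Ks of the STE20 class and small GTPases activate MAP3Ks, MAP3Ks phosphorylate MAP2Ks, and MAP2Ks phosphorylate the MAPKs, which act on transcription factors such as JUN, FOS and ELK1. The ERK branch is driven by growth factors and is central to colon cancer, whereas the JNK and p38 branches respond mainly to stress and cytokines. APC is best known as part of the complex that marks β-catenin for destruction in WNT signalling.

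The promoter letters of 4 members are shown because these had the longest promoter-annotated peak of their tier. Each runs 5′ to 3′ over the 250 bases before the first start site that RefSeq lists for the gene (GRCh38.p14). Capitals mark GC boxes (GGGCGG, either strand), the letters that SP1-class factors recognise.
MAPK11 (chr22:50270381-50270630, minus strand): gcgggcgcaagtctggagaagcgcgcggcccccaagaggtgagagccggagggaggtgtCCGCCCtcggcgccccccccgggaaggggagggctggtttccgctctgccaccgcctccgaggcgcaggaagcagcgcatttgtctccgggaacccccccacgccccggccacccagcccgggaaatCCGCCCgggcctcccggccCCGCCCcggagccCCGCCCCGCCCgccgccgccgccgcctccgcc
MAP2K2 (chr19:4124123-4124372, minus strand): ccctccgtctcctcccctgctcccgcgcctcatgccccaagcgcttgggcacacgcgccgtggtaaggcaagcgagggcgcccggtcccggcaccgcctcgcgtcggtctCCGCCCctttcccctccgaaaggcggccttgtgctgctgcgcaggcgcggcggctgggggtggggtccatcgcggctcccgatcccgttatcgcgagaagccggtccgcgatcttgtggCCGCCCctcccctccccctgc
MAP3K12 (chr12:53499459-53499708, minus strand): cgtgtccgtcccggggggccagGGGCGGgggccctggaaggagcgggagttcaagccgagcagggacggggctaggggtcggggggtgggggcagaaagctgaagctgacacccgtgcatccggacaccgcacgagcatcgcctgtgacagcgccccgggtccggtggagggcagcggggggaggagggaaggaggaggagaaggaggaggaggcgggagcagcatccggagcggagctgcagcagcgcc
MAP4K2 (chr11:64803215-64803464, minus strand): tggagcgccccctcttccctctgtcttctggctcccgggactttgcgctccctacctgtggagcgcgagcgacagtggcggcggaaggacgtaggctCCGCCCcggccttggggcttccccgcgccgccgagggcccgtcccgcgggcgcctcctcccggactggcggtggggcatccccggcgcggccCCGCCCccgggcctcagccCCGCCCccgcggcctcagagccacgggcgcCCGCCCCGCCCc

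GC boxes stood 5 times each in the MAPK11 and MAP4K2 windows, where in both the last pair overlaps, 2 times in MAP2K2 and 1 time in MAP3K12. The peaks themselves are given in hg19, and a start site in RefSeq need not be the one used for the peak list. Of 39 members with an entry in the promoter table, 31 held a GC box (79.5%), against 56.0% of 15841 protein-coding promoters of the same length. MAPK15, MAP3K1 and MAP3K15 were among those with no entry. The TCF/LEF core CTTTGA (either strand), the letters read by the DNA-binding partners of β-catenin, stood in 2 of the 39, MAPK10 and MAP3K13, against 9.58% of all. The AP-1 motif TGANTCA (either strand), the site of JUN and FOS dimers, stood in MAP2K3 alone, against 5.04% of all promoters. The ETS core CCGGAA (either strand) stood in 9 (23.1%, against 19.3%) and the CRE TGACGTCA in MAPK10 and MAP3K13 (5.13%, against 2.32%). The E-box CACGTG stood in MAPK3 and MAPK12 (5.13%, against 7.84%). Each motif was counted on its own, whether or not its letters overlapped another match, and a match describes the window only.

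Most cascade genes had a peak near their start. A gene was counted as linked where a peak named for it had its centre within 10 kb of its transcription start site (TSS). That held for 33 of 43 members (76.7%, 95% Wilson interval 62.3 to 86.8), against 50.9% of 20037 protein-coding genes. Older symbols, which the background already takes in, raised this to 79.1%, since the list carries MAP3K20 under its former name ZAK. The MAP2K tier was linked in full (7 of 7, interval 64.6 to 100.0%). The MAP4K tier had 4 of 5 (80.0%, interval 37.6 to 96.4), the MAPK tier 10 of 13 (76.9%, interval 49.7 to 91.8) and the MAP3K tier 12 of 18 (66.7%, interval 43.7 to 83.7). The 4 intervals overlap, cover counting error only, and no difference between tiers was tested. Among protein-coding genes, 67.5% were named for any peak, and 38 of 43 members were.

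Whether a peak lay over the start itself was counted next. Start sites read back from the listed distances lay under a peak, whatever gene it was named for, in 26 of 39 members with such a site (66.7%, interval 51.0 to 79.4), against 58.8% of 12464 protein-coding genes with one. Such a site could be read only for a gene named for a peak, so genes without a peak are left out of both shares. The 39 take in MAP3K20, covered, through its older name ZAK. They leave out MAP3K21, whose peak is listed under KIAA1804. The count was 5 of 5 for MAP4K (interval 56.6 to 100.0%), 6 of 7 for MAP2K (85.7%, interval 48.7 to 97.4), 10 of 15 for MAP3K (66.7%, interval 41.7 to 84.8) and 5 of 12 for MAPK (41.7%, interval 19.3 to 68.0). MAPK was the lowest tier and MAP4K the highest, but these intervals overlap too. By named gene alone, 24 of 43 members had a covered TSS, against 36.5% of all protein-coding genes. A peak annotated promoter was found for 4 MAPK, 1 MAP2K, 3 MAP3K and 4 MAP4K genes, 12 of 43 in all, against 22.0% of protein-coding genes. The label is given by the peak centre, and for MAP4K5 it names the promoter of ATL1. The label is narrower than coverage: of the 6 covered MAP2K starts, only that of MAP2K2 carried it, as the other centres fell in first exons or introns.

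**Figure D1:**
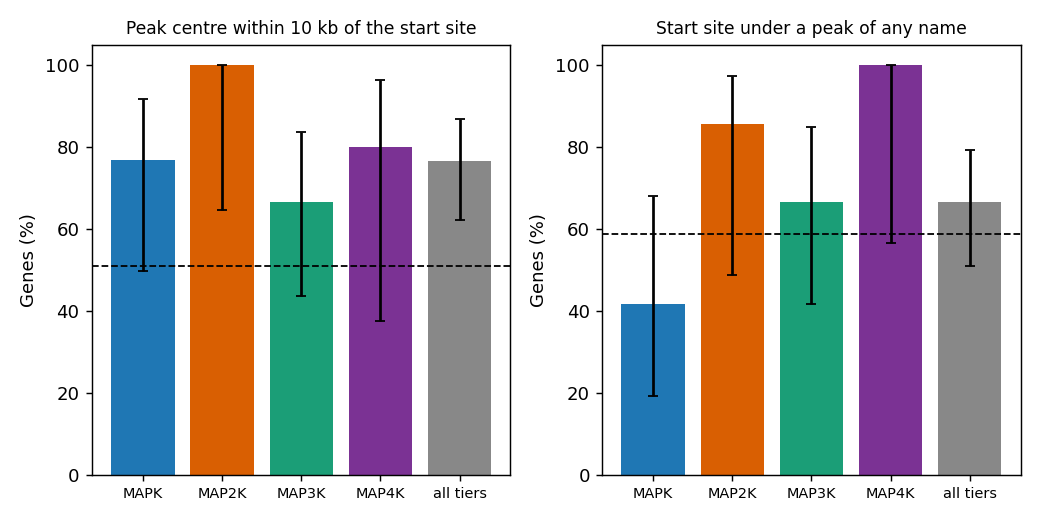
Share of genes in each tier (bars, %) with a peak centre within 10 kb of the start site under the gene's current symbol (left) and with the start site under a peak of any name (right). The right panel and its dashed line cover only genes named for a peak, since start sites were read back from such peaks. Error bars are 95% Wilson intervals, dashed lines are the shares of protein-coding genes, 50.9% and 58.8%; MAP2K reaches 100.0% on the left, MAP4K 100.0% and MAPK 41.7% on the right.

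The MAPK tier is the last step of the cascade, and its branches had unlike peaks. MAPK3 (ERK1), a kinase of the growth-factor branch, had 1 peak, 1162 bp long and 23394 bp upstream, centred in an Alu element, one of the short interspersed (SINE) repeats of primates. No peak in the list lay nearer than 9291 bp to the MAPK3 start, and that nearest one was named for GDPD3. The MAPK3 start was thus free of peaks, and its promoter window had 80.4% G and C letters and 6 GC boxes.

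Among the JNKs, which phosphorylate JUN, MAPK8 (JNK1) had 6 peaks of 717 to 2052 bp. At its upstream start site, 49514682 on chromosome 10, lay a 1623-bp peak (49514094 to 49515715) with a CpG island at its centre. Its other 5 peaks were measured from a second start site, 49609655, which no peak covered. The nearest to it was a 1418-bp peak 2104 bp downstream. MAPK9 (JNK2) had 4 peaks of 912 to 1235 bp, 3 of them in Alu repeats and one of those within an intron of GFPT2, and none over its start. The closest was centred 2019 bp into the first intron. MAPK10 (JNK3), known mainly from neurons, had 4 peaks of 569 to 877 bp spread over 488 kb, all centred in Alu elements, with the nearest 5029 bp upstream. Of these 3 genes MAPK8 alone had a peak over a start.

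The p38 kinases are stress and cytokine effectors. MAPK14 (p38α), the widely expressed form, had a 2924-bp peak over its first exon (chromosome 6, 35994314 to 35997236) and 2 short peaks of 899 and 680 bp in the first intron. MAPK11 (p38β) had the longest promoter peak of the tier, 3975 bp (chromosome 22, 50706756 to 50710729). A second MAPK11 peak of 1557 bp lay in an exon of another gene, PLXNB2. MAPK12 (p38γ), next to MAPK11, had 1 promoter peak of 1617 bp (50700128 to 50701743), which ended 39 bp short of the start. MAPK13 (p38δ) had 2 peaks, 1227 bp long at 9380 bp downstream and 1082 bp long at 16269 bp upstream. Coverage of the start was thus seen for 2 of the 4 p38 genes, MAPK11 and MAPK14.

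The atypical MAPKs and ERK5 ranged from none to 5 peaks. MAPK6 (ERK3) had 5 peaks in 37.8 kb, a 1267-bp promoter peak and 4 of 1179 to 2781 bp within introns, of which the first 3 lay 3348, 8171 and 12862 bp downstream. MAPK15 (ERK7/ERK8) had a 5822-bp peak in a late exon 5281 bp from the TSS, the longest of the tier, and a 1859-bp peak that ended 130 bp before the start. MAPK4 (ERK4) had 1 peak of 866 bp, 38760 bp upstream, in a DNA transposon. No peak was named for MAPK7 (ERK5), nor for the genes on either side of it, B9D1 and MFAP4, so its start on hg19 could not be read from the list.

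Peaks of the MAP2Ks, the dual-specificity kinases that activate the MAPKs, had the highest median length of the 4 tiers, a rank that rested on MAP2K3. Their median was 1825 bp, against 1478.5 bp for MAP3K, 1401 bp for MAP4K, 1232 bp for MAPK and 1350 bp over all peaks. Peaks of 5 kb or more made up 4 of 20 in this tier, 1 of 37 in MAPK, 1 of 46 in MAP3K and 0 of 13 in MAP4K, against 3.08% of the whole list. MAP2K3, an activator of p38, supplied 3 of the 4. Without it the MAP2K median was 1474 bp, below the 1478.5 bp of MAP3K.

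MAP2K3 had 5 peaks totalling 28.5 kb within 50.4 kb of chromosome 17. One of 7769 bp (21184977 to 21192744) covered both of its start sites, and it was longer than or equal to 97.7% of the 8396 peaks that cover the TSS of their named gene. Peaks of 5603 bp (21207717 to 21213318) and 11026 bp (21216958 to 21227982) followed in the ninth intron and downstream of the gene, with peaks of 1871 bp in the third intron and 2243 bp at 9221 bp upstream. This band of chromosome 17 is known for segmental duplications, and how reads with several matches were handled is not given, so these lengths are uncertain. MAP2K6, the other p38 activator, had no peak over its start, and its 2 peaks of 1543 and 1779 bp were both centred in Alu elements, 32031 bp upstream and 8216 bp downstream.

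The other 5 MAP2Ks each had 1 peak over a start. MAP2K1 (MEK1), a kinase of the growth-factor branch that activates ERK1, had a 2321-bp peak in its first exon (chromosome 15, 66678359 to 66680678) and 3 others of 872 to 1220 bp. MAP2K2 (MEK2), its partner, had a 1904-bp promoter peak (chromosome 19, 4123668 to 4125570). A longer peak of 5689 bp was centred in an AluY 9553 bp upstream, and one of 1312 bp lay in the sixth intron. MAP2K7, an activator of JNK, had 1 peak, 4550 bp long (chromosome 19, 7966641 to 7971189). MAP2K4, the other JNK activator, had a 1474-bp peak in a CpG island at its start and one of 1123 bp in an intron. MAP2K5, which activates ERK5, had a 2261-bp peak at its upstream start, while its second start, 1400 bp from the nearest peak, was not covered.

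**Figure D2:**
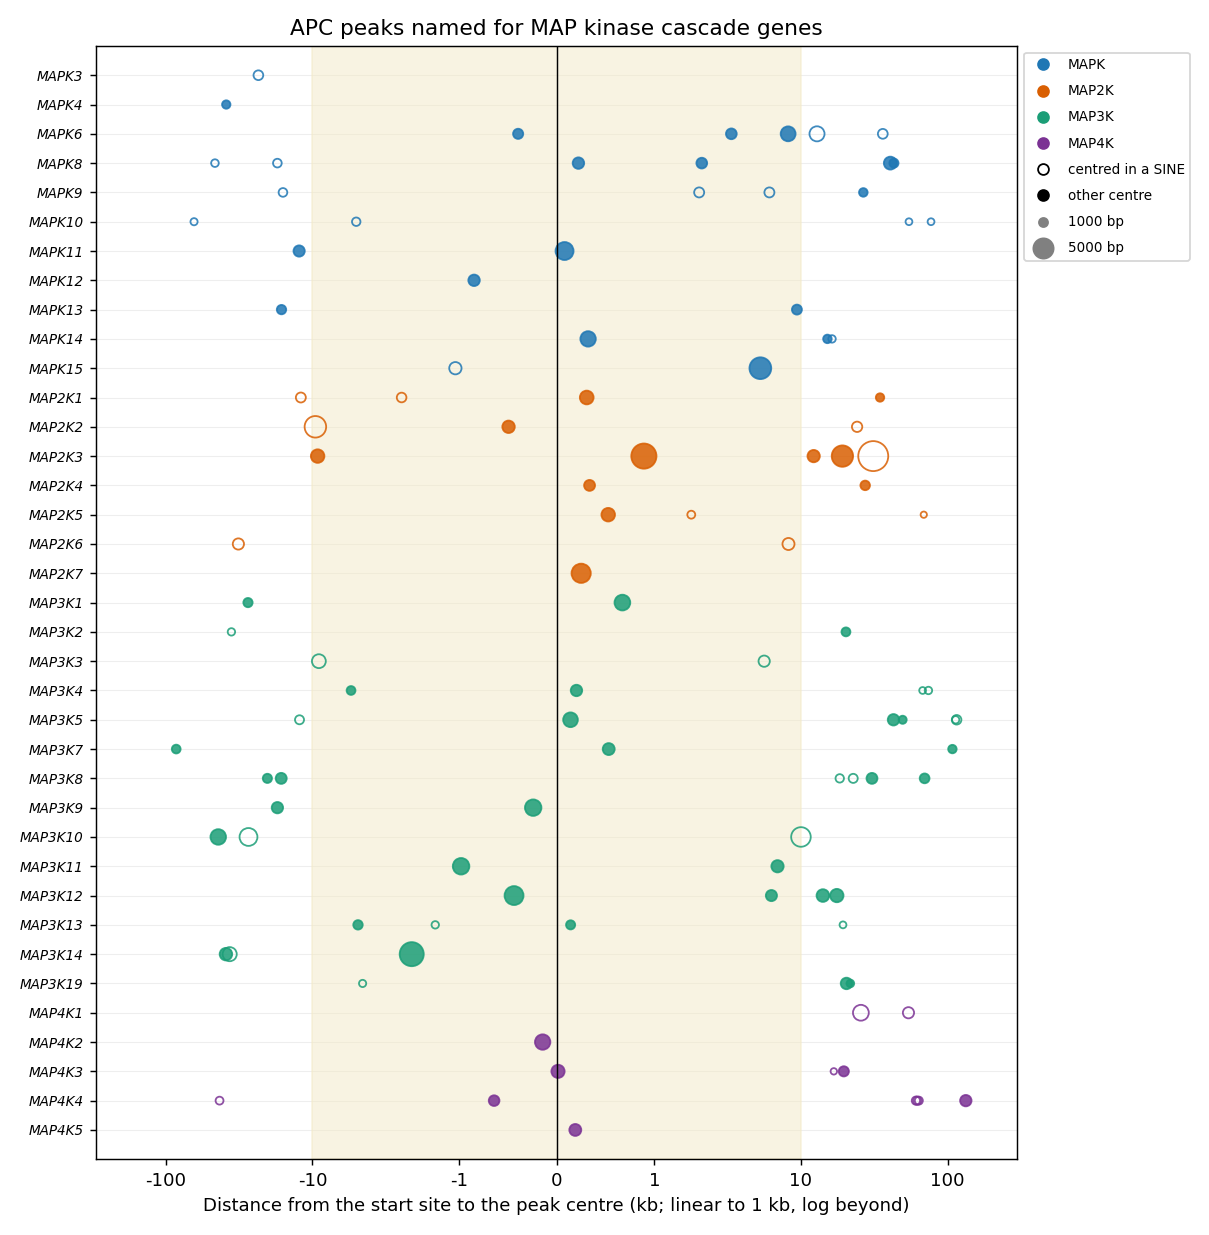
Position of the peaks of the genes described here, 1 row per gene, as the distance from the start site to the peak centre (kb, linear to 1 kb and logarithmic beyond). Circle area stands for peak length, open circles for peaks centred in SINE repeats, and the shaded band for 10 kb on either side; the largest circle is a MAP2K3 peak of 11026 bp, and MAPK3, MAPK4, MAP3K2, MAP3K8 and MAP4K1 have none in the band.

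The MAP3Ks receive signals from many receptors. Of the mixed-lineage kinases and their relatives, which feed mainly the JNK branch, the 5 genes MAP3K9 to MAP3K13 were linked, against 50.9% of protein-coding genes, and 4 of them had a covered TSS, against 36.5%. Relatives listed under older names are given further on, and one of them, KIAA1804, was not linked. MAP3K12 (DLK) had a 4412-bp promoter peak (chromosome 12, 53891676 to 53896086) and 3 more of 1533 to 2190 bp, none centred in a repeat, the last at the end of another gene, PCBP2. MAP3K11 (MLK3) had a 3361-bp promoter peak and MAP3K9 (MLK1) one of 3330 bp. MAP3K10 (MLK2) had 3 long peaks of 2977, 3914 and 4699 bp, the last centred 9995 bp downstream, just inside the 10-kb limit, and none over its start. MAP3K13 (LZK) had 4 short peaks of 579 to 1098 bp, one of which, 1028 bp long, covered a start site in a CpG island.

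MAP3K14 (NIK), the kinase of non-canonical NF-κB signalling, had the longest linked MAP3K peak, 7113 bp (chromosome 17, 43392978 to 43400089). Its centre lay 2103 bp upstream, but it covered the start and was longer than or equal to 97.1% of TSS-covering peaks. A pair of MAP3K14 peaks, 2440 and 1934 bp long, lay 48 bp from each other farther upstream. MAP3K7 (TAK1), which joins TGF-β and cytokine receptors to JNK, p38 and NF-κB, had a 1762-bp peak in its first exon and peaks of 878 and 950 bp at 107949 bp downstream and 85084 bp upstream. MAP3K8 (TPL2), which activates ERK downstream of inflammatory receptors, had 6 peaks of 869 to 1488 bp, but the nearest was centred 16343 bp upstream.

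Of the MEKK genes, MAP3K1 had a 3049-bp peak in its first exon (chromosome 5, 56110049 to 56113096), and MAP3K4 one of 1608 bp at its start. MAP3K2 and MAP3K3 had no covered start: the nearest peaks were centred 20265 and 5608 bp away. MAP3K5 (ASK1), a kinase of oxidative stress, had 6 peaks, of which a 2660-bp peak in the first exon covered the start and the other 5 were 660 to 1609 bp long. No peak was named for its relatives MAP3K6 and MAP3K15. A 9962-bp peak was named for SYTL1, the gene next to MAP3K6 in RefSeq order, and whether it reaches MAP3K6 cannot be told from the list. MAP3K19 had 3 peaks of 641 to 1630 bp, the nearest centred 4549 bp upstream. Under older names, ZAK (now MAP3K20) had a 1673-bp peak in its first exon over the start, and KIAA1804 (alias MLK4, now MAP3K21) a 916-bp peak 13774 bp into the gene.

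The MAP4Ks had 13 peaks, and 4 of the 5 genes had a promoter peak over the start. MAP4K2 had 1 promoter peak of 2914 bp (chromosome 11, 64569401 to 64572313). MAP4K5 (KHS) had 1 of 1755 bp over its start. The list annotates that peak to the promoter of ATL1, so it cannot be assigned to either gene. MAP4K3 (GLK) had a 2149-bp promoter peak and 2 intronic peaks of 1273 and 509 bp. MAP4K4 (HGK) had 6 peaks: a 1401-bp promoter peak, a trio of 840, 843 and 790 bp in Alu elements of the second intron with gaps of 483 and 735 bp, one of 1600 bp in the sixth intron and one of 768 bp upstream. MAP4K1 (HPK1), known mainly from blood cells, had 2 peaks named for it, 1539 and 3069 bp long, both in SINE repeats; the first lay in an intron of the neighbouring RYR1. Its start at 39108675 on chromosome 19 nevertheless lay under a 2988-bp peak (39107798 to 39110784) that the list names for EIF3K, a translation initiation gene, so this peak cannot be assigned to either gene.

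**Figure D3:**
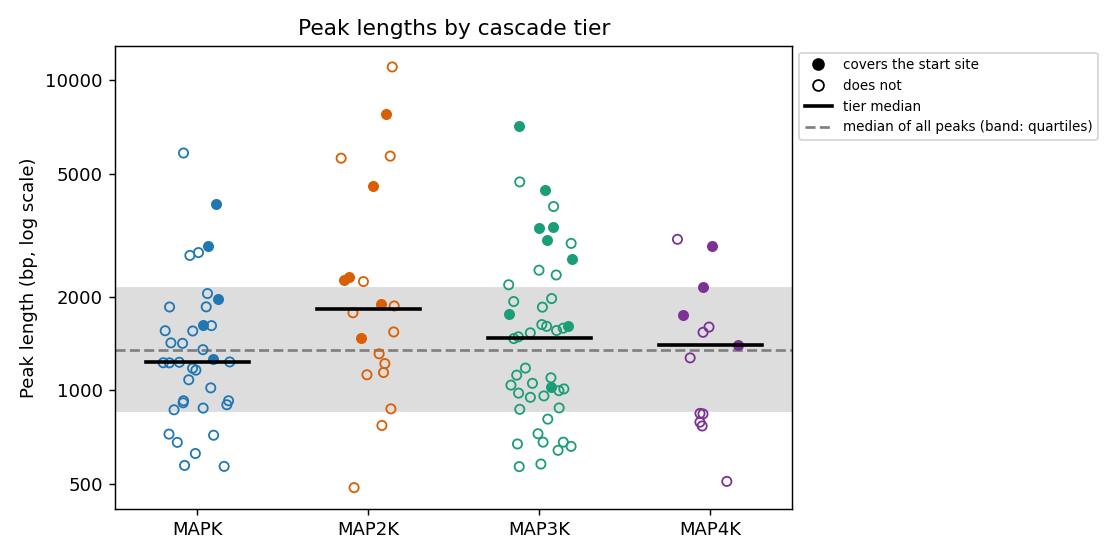
Length of each peak (bp, log scale) by tier, with filled circles for peaks over the start site of the named gene, open circles for the others, and bars for tier medians. The dashed line is the median of all peaks, 1350 bp, within a band of the quartiles; filled circles have medians of 1975, 2291, 3049 and 1952 bp from MAPK to MAP4K.

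Peaks over a start were longer than the rest, as in the whole list. The 24 that covered the TSS of their named gene had a median of 2291 bp, against 1179.5 bp for the other 92, and the same medians over all peaks were 2249 and 1184 bp. Such peaks made up 20.7% of the cascade peaks and 18.8% of the list. Downstream of the TSS lay 62.1% of the cascade peaks, against 58.9% of all. Intergenic peaks made up 31.9%, against 36.1%, and promoter peaks 10.3%, against 11.2%. Beyond 100 kb lay 4 of 116 (3.45%), 2 of them in MAP3K5 and the others in MAP3K7 and MAP4K4, against 13.2% of all peaks. Of 79 peaks not annotated intergenic, 74 were annotated to a transcript of the gene they were named for and 5 to that of another gene. The 79 take in 12 promoter peaks and 1 at a transcript end, whose centres need not lie inside the transcript. Conversely, peaks in member transcripts could be named elsewhere: 5 in MAP4K3 were named for CDKL4, and a 3554-bp peak at the end of MAP3K3 for LIMD2.

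Repeats sat at many centres away from starts. SINE elements held 49 of 116 centres (42.2%, against 38.7% of all peaks), from 34.8% in MAP3K to 53.8% in MAP4K. These peaks had a median of 1011 bp, against 889 bp for SINE-centred peaks in the whole list, and none of the 24 peaks over a TSS was among them. The share of SINE centres among all 8396 peaks over a TSS was not counted, so this is not shown to be particular to these genes. Peaks with no repeat at the centre had medians of 1626.5 bp here and 1772 bp in all. Shares near the list's own say nothing particular about these kinases.

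**Figure D4:**
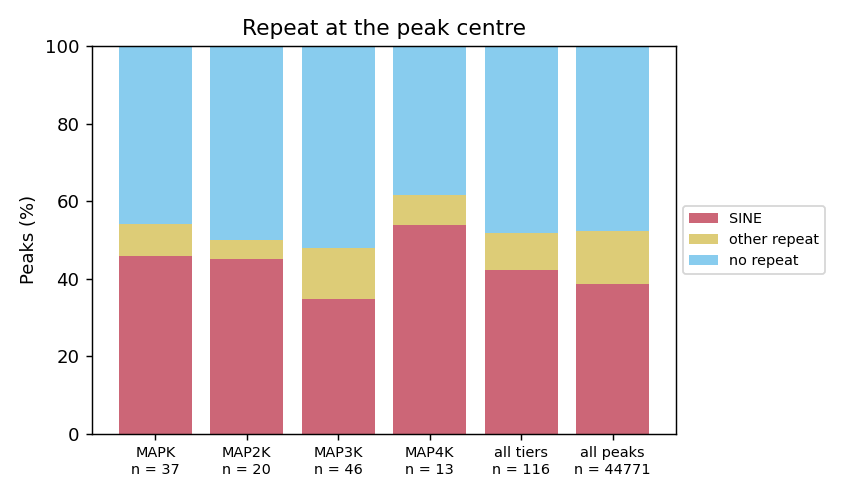
Share of peaks (%) by the repeat at the peak centre, for each tier, for all 116 cascade peaks and for the whole list. SINE centres range from 34.8% in MAP3K to 53.8% in MAP4K, with 42.2% over all tiers and 38.7% over all peaks.

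Base composition was set beside coverage of the start, with no test. The median share of G and C letters in the 250 bases was 72.8% for 24 members with the start under a peak (54.8 to 80.4%) and 73.8% for 12 without (43.6 to 84.4%), so the groups overlap. Over protein-coding genes with a readable start the medians were 65.6% (26.4 to 96.4%) and 61.6% (23.6 to 92.0%). MAPK3, MAPK4 and MAPK13, with 80.4, 83.2 and 84.4%, were among the uncovered. GC boxes stood in 21 of the 24 (87.5%) and in 8 of the 12 (66.7%), against 69.3% and 52.5% over all genes.

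Genes around the cascade were counted in the same way. MAPK phosphatases, which switch MAPKs off, were linked in 9 of 10 cases (90.0%), with peaks of 8382 bp at DUSP5, 5965 bp at DUSP4 and 4912 bp at DUSP6. Kinases downstream of MAPKs had 9 of 11 (81.8%), with 9857 bp at MKNK2, 5397 bp at RPS6KA4 and 4623 bp near MAPKAPK3. The MAPKAPK3 peak was centred 9099 bp from the TSS. RAS, its exchange factors, GRB2, MOS and the RAF kinases had 8 of 10 (80.0%), with 4507 bp at GRB2 and 3322 bp near HRAS. Other STE20 kinases had 13 of 17 (76.5%), among them STK25 (4339 bp), STK10 (3161 bp) and TNIK (3085 bp), a kinase of the TCF complex. Scaffolds and adaptors had 10 of 14 (71.4%), with 6849 bp near SPAG9, 2669 bp at KSR2 and 2535 bp at LAMTOR2, and 1 of 3 TAO kinases, TAOK3 (1246 bp), was linked. Cyclin-dependent kinases, taken as kinases outside the cascade, had 13 of 19 (68.4%), led by CDK3 (20232 bp), CDK18 (4213 bp) and CDK13 (3868 bp). A covered TSS was found in 40.0% of the RAS and RAF list, 33.3% of the TAO kinases, 54.5% of the downstream kinases, 57.1% of the scaffolds, 57.9% of the cyclin-dependent kinases, 60.0% of the phosphatases and 76.5% of the other STE20 kinases, against 36.5% of protein-coding genes. The linked shares stand beside 50.9% of all protein-coding genes, of which 12.3% had a linked peak of 3 kb or more, as did 11 of 43 cascade genes. Of 10 colon epithelium markers 7 were linked, and of 10 markers of other cell types 4, ALB, COL1A1 and GFAP among them. No peak named for KRT18, KRT20 or CDX1 had its centre within 10 kb of the TSS. Peaks of other names were not searched there, and peaks do not measure expression.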

How the data were processed

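Chromatin of HCT-116 cells was crosslinked, sonicated, digested with micrococcal nuclease and immunoprecipitated with an antibody against APC, per the labels' protocols. One list of annotated peaks was analysed; the submitters' processing notes name MACS2 and hg19. Not given in the sources used here: version, aligner, calling threshold, control, annotation tool and handling of reads with several matches. In every row the authors' deposited score was 2 more than the difference of the coordinates, so it served as a length in bp and not as a strength. The list holds no read counts, so depth is unknown.

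Genes were selected by symbol, and the tiers were compared by counts, medians and 95% Wilson intervals, with no test, since there is 1 library. The members and the lists of related genes were chosen with earlier results of these data known. Values are given in full for every MAPK and MAP2K member, for the longest linked peak of a tier, for the 10 members with most peaks, for MAP3K and MAP4K members with a peak of 3 kb or more, and for up to 3 members per related list; a few of these genes are counted but not reported by name here. RefSeq (GRCh38.p14) gave 20037 protein-coding genes as background, older symbols included, and served for names, strands and gene order. Start sites on hg19 were read back from each peak's centre, its listed distance and the gene's strand. For members with no entry in the promoter table, the strand was the one that placed all peaks at the fewest start sites. The counting was tested on simulated data. Promoter letters come from RefSeq (GRCh38.p14); 39 of 43 members had an entry. Python 3.11.15, numpy 2.4.6, pandas 2.3.3, scipy 1.17.1 and matplotlib 3.10.9 were used. Alternatives were longer peaks only, no SINE-centred peaks, merging of peaks within 1 kb, links within 1 kb, 50 kb or any distance, older symbols and 2 other backgrounds; leaving out MAP2K3 was added after seeing the data.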

Additional observations from a re-analysis of the deposited data

How the results depend on the processing

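Of 124 values recomputed under other settings, 87 stayed within 1.5 times the count or within the 95% interval of a median or share, and 37 moved. The linked counts stayed so under links within 50 kb or at any distance and with older symbols, as did all values after merging peaks of one gene within 1 kb. Links within 1 kb left 6 MAPK, 6 MAP2K, 8 MAP3K and 4 MAP4K genes, 24 in all. The shares of protein-coding genes linked within 1 kb or 50 kb were not counted, so these counts have no background beside them. The protein-coding background was linked at 52.6% without LOC symbols and at 75.4% among genes named for any peak, which selects on the measure itself. Of the 38 members named for a peak by current symbol, 33 were linked. Keeping peaks of at least 1350 bp left 16 MAPK, 13 MAP2K, 24 MAP3K and 7 MAP4K peaks, 60 in all, with medians of 1858, 2083.5 and 1976 bp for MAPK, MAP3K and all tiers. Keeping peaks of at least 2135 bp left 5, 8, 12 and 3 peaks, 28 in all, with medians of 2924, 5076.5, 3189.5, 2914 and 3059 bp. At that length 4 MAPK, 5 MAP2K, 8 MAP3K and 2 MAP4K genes, 19 in all, were linked. In the same order covered starts numbered 2, 4, 6 and 2, 14 in all, and promoter peaks 1, 0, 3 and 2, 6 in all. These 2 settings raise medians and lower counts by construction, and no protein-coding share under the same cuts is set beside them. Without SINE-centred peaks 20, 11, 30 and 6 peaks remained, 67 in all, with a median of 1608 bp over all tiers. Leaving out MAP2K3, chosen after seeing the data, left 15 MAP2K peaks with a median of 1474 bp. No paired analysis was possible because the series has 1 library per group. Depth is unknown, so the lack of a peak at the MAPK3 start, or of one named for MAPK7, does not show the absence of APC at these genes.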

Other observations

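RefSeq lists 8 pseudogenes whose symbols derive from cascade members, 6 of MAPK6, 1 of MAP2K1 and 1 of MAP2K4. No peak was named for any of the 8. The share of all pseudogenes named for a peak was not counted, and whether the list's annotation holds these 8 is not known. No contrast with the parent genes can be drawn from this. Neighbours in RefSeq order of members without a linked peak were uneven: no peak was named for SKA1, beside MAPK4, or for MTPAP and LYZL2 on either side of MAP3K8, whereas ERCC3, beside MAP3K2, had 2 and CORO1A, beside MAPK3, had 1 of 2679 bp.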
